A study of Gallus gallus with 8 samples.

Results

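Collagens, laminins and the glycoproteins of the extracellular matrix were followed through 8 libraries of the chick embryo. The genes were picked by name alone, with a fixed name pattern. It covered collagen and laminin chains, nidogens, fibronectin, fibulins, fibrillins, elastin, emilins, thrombospondins, tenascin C, periostin and matrilins. Collagens listed under a database entry name were taken only in the form of CO3A1, with a single digit after CO. Entry names of other forms could be missed. The pattern gave 47 of 17778 listed genes, namely 24 collagen chains, 7 laminin chains, 15 other matrix glycoproteins and COL4A3BP. The last carries a collagen name but encodes a ceramide transfer protein. COL1A1, COL4A1, LAMA1, LAMC1, NID1, THBS1, POSTN and the fibrillins found no match by name and were not analysed here. Further family members, such as COL5A1, COL11A1, COL12A1, COL18A1, LAMB2 and EMILIN1, were not among the 47 either.

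The study set the inflow region of the early Gallus gallus heart, where the pacemaker forms, beside atrium and ventricle. Each group is 1 library from pooled tissue. Heart tissue came from the developing sinoatrial node (the pacemaker region), the embryonic atrium on its left side, the common ventricle at its apex, and the atrioventricular (AV) junction at Hamburger-Hamilton (HH) stage 17 to 18. The lateral plate mesoderm, the sheet from which the heart forms, gave the pacemaker progenitor field and the anterior, left and posterior mesoderm, all at HH stage 8. The sources used here give no strain, no treatment, and no stage for node, atrium and ventricle. The mesoderm and the junction, the heart library with a stated stage, differ in stage as well as in tissue, and these cannot be told apart. For the other 3 heart libraries the difference in stage is not known, from the mesoderm, from the junction or from each other. Comparisons within the heart therefore cannot tell region from stage. Because the tissue is bulk, fewer cells of a type and less RNA per cell cannot be told apart either.

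The extracellular matrix gives tissue its shape and carries signals to cells. Fibrillar collagens form load-bearing fibres, while collagen IV, laminins and nidogens build the basement membrane under muscle and epithelium. Fibronectin is the matrix on which early mesoderm migrates, elastin and emilins form elastic fibres in the outflow and great vessels, and fibulins, thrombospondins, tenascins and matrilins tie these networks together. In the embryonic heart, matrix fills the space between muscle and endocardium and swells into the cushions from which valves form.

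Counts assigned to genes ran from 10258697 in the ventricle to 17189803 in the atrium, and 14228 to 14961 genes had at least 1 count. Levels are in CPM, a gene's count per 1000000 counts of its library after scaling between libraries. 1 count was worth 0.0541 to 0.109 CPM. A library with 0 counts of a gene allows a level of up to 3 counts, or 0.162 to 0.326 CPM. As groups are single libraries, nothing here was checked against replicates and p-values were not computed. Calling a gene took 3 conditions on the libraries of both sides that lay nearest to each other: a 2-fold difference after 1 CPM was added to each, 5 CPM or more in the higher one, and a 95% Clopper-Pearson interval of the count ratio that left out 1. Folds are those of the nearest pair and intervals cover counting error only. PCR copies are not independent molecules. All 8 heart muscle markers found were called higher in the heart, with summed levels of 17870 to 25030 CPM against 501 to 972 in the mesoderm libraries. Of 5 endoderm and liver markers found, FGB and TTR were called lower in the heart and none higher. The list summed to 840 to 1034 CPM in mesoderm and 121 to 1524 in the heart, with APOA1 the largest part in every library.

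Of the 47 genes, 35 reached 5 CPM in at least 1 library, 15 did so in all 8, and 12 stayed below 5 CPM throughout. Across the 10 comparisons made, 16 genes were called at least once and 19 of the 35 never. The same pooled count was not made over all genes, so these numbers only describe the 47. The heat map of the matrix genes shows most basement membrane genes and the fibrillar collagens COL1A2, COL2A1 and COL5A2 in every library, and a smaller set of genes that stand out in single regions.

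**Figure D1:**
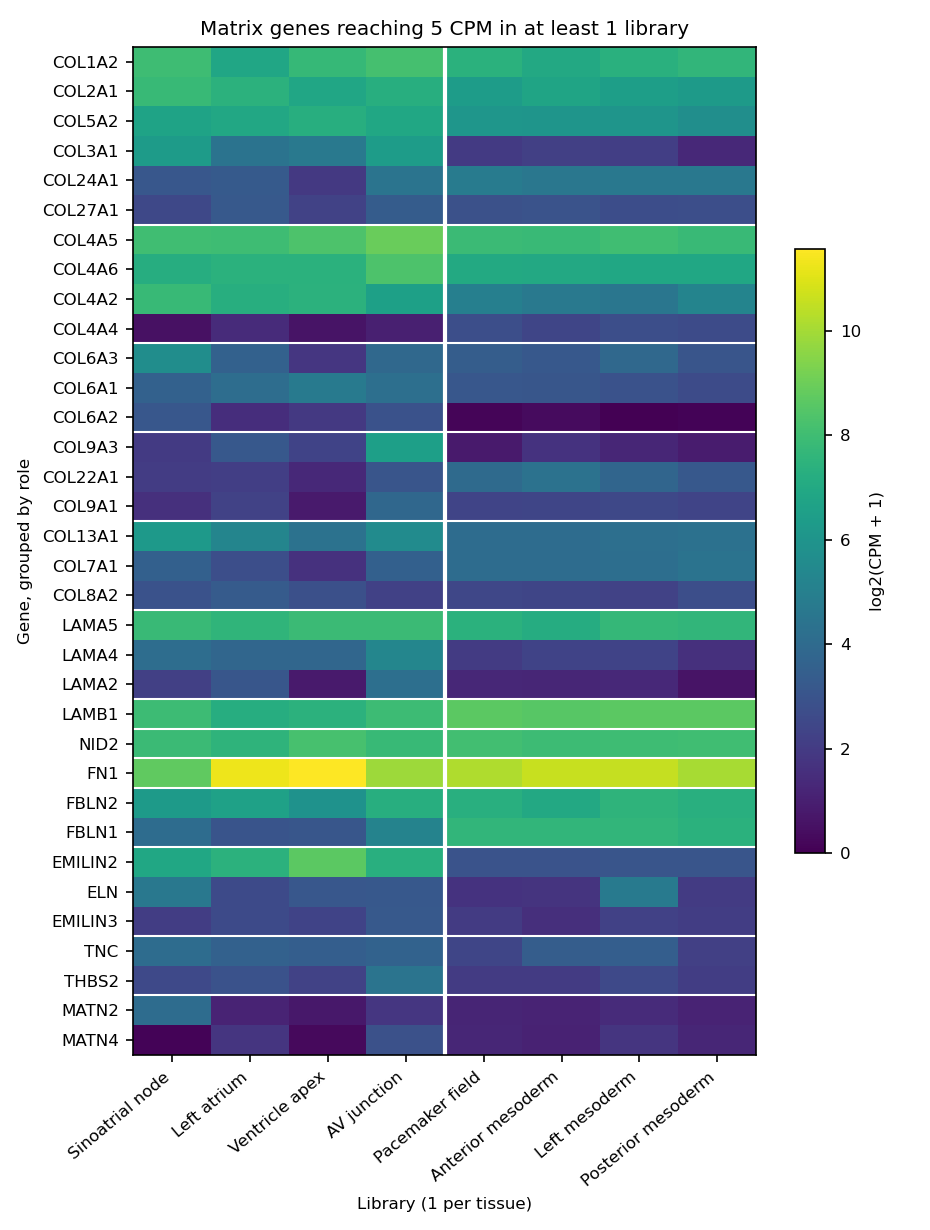
Heat map of the matrix genes that reached 5 CPM in at least 1 library (rows, grouped by role with white lines) in the 8 libraries (columns, heart left of the thick line, mesoderm right), coloured by log2(CPM + 1). FN1 is bright in every column and brightest in the left atrium and ventricle apex, COL9A3 stands out in the AV junction, and ELN in the sinoatrial node and left mesoderm.

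Together the 47 genes held 0.289% of gene counts in the node, 0.332% in the junction, 0.376% in the atrium and 0.494% in the ventricle. The mesoderm libraries lay between 0.337% and 0.430%. Fibronectin had the most counts of the 47 genes in all 8 libraries. FN1 made up 14.5% of the members' counts in the node, 24.2% in the junction, 55.5% in the atrium and 55.3% in the ventricle. Collagens held 0.146% of the node's counts and 0.152% of the junction's, and 0.0950% of the atrium's, 0.111% of the ventricle's and 0.0841% to 0.0993% in mesoderm. Fibulins held 0.0340% to 0.0447% of the counts in the mesoderm libraries and 0.00592% to 0.0160% in the heart. These shares are of counts and are not corrected for gene length.

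**Figure D2:**
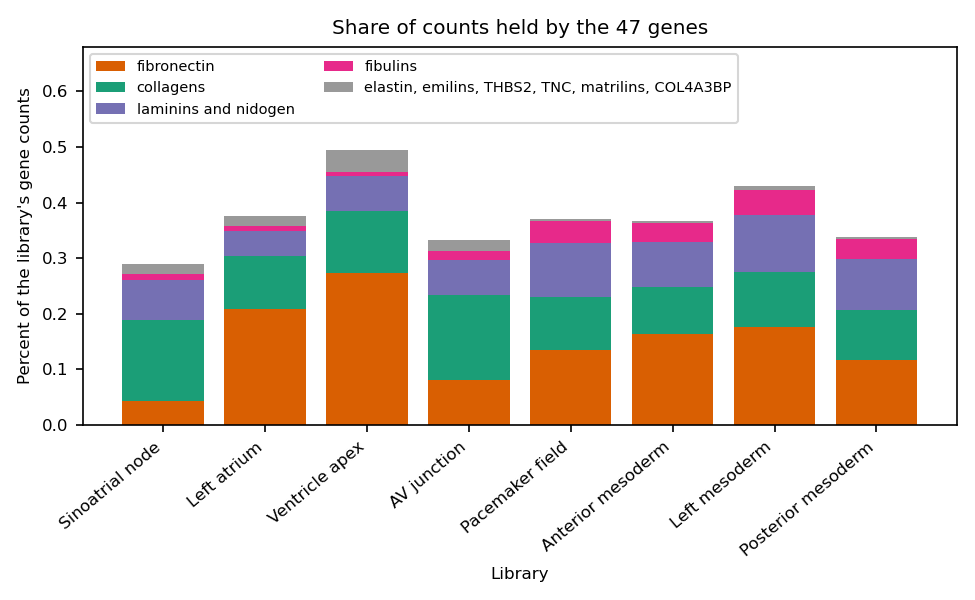
Stacked bars of the percent of each library's gene counts held by the 47 genes, by class, with the 8 libraries on the horizontal axis. Fibronectin takes most of the bar in the left atrium and ventricle apex and 0.0419% of counts in the sinoatrial node, and the fibulin band is widest in the mesoderm libraries.

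The heart and the stage 8 mesoderm were compared first. EMILIN2, COL3A1, LAMA4 and COL4A2 were higher in every heart library than in every mesoderm library, and FBLN1 was lower. These were 4 of 47 genes called higher, where 5.62% of all 10454 tested genes were, and 1 called lower, where 2.53% were. In all, 35 of the 47 were tested. The median log2 ratio of the side means was 0.38 over the 47 genes and 0.00 over all listed genes. Leaving out the node raised the higher calls to 5, adding COL6A1. Leaving out the junction raised the lower calls to 3, adding COL22A1 and COL24A1, and leaving out the anterior mesoderm gave 2, adding COL4A4. For a left-out library no share over all genes was computed, here or below, so these counts have no background to be read against. Of 4 blood markers 1 was higher in the heart: HBAD, a globin gene, was at 2127 to 4817 CPM in the heart and 5.32 to 7.90 in mesoderm. Of 11 endothelial markers 4 were higher and 1 lower, with a summed level of 226 to 397 CPM against 123 to 143, and none at 0 in any library. Of 4 smooth muscle markers TAGLN was higher, at 27.4 to 74.5 CPM against 0.686 to 1.45, and the list summed to 218 to 911 CPM against 46.7 to 107. Of 7 cushion markers TBX20 was higher and HAPLN1 lower, with sums of 218 to 711 CPM in the heart and 369 to 394 in mesoderm. Their part in the matrix differences was not tested.

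Within the heart, the junction carried the most matrix genes above the other 3 regions. COL9A3, COL9A1, THBS2, MATN4, COL24A1, LAMA2, LAMA4 and FBLN1 were called higher, 8 of 47 where 0.827% of 9916 tested genes were. None was called lower, where 0.514% of genes were, and 34 of the 47 were tested. The median log2 ratio to the mean of the other heart libraries was 0.30 over the 47 genes and 0.00 over all listed genes. Among the 35 genes at 5 CPM in any library, the junction was the highest heart library for 16, or 45.7%, against 21.9% of all genes at that level. The 16 include the 8 called genes, so this count is not separate support. COL9A1 and MATN4 reached 5 CPM in the junction alone and entered the 35 through it. Leaving out the node library added 1 lower call, FN1, and raised the higher calls to 9, adding COL3A1. With total count scaling FBLN1 and LAMA4 fell short of the threshold, at log2 ratios of 0.87 and 0.93. Cushion mesenchyme markers moved the same way: 4 of 7 found were higher in the junction (HAPLN1, MSX2, SOX9 and VCAN), with a summed level of 711 CPM against 218 to 284 elsewhere in the heart and none at 0. Of 11 endothelial markers 2 were lower (SOX7 and TEK) and none higher, with a summed 226 CPM against 344 to 397. Of 6 epicardial markers SEMA3D was higher, at 77.6 CPM against 9.26 to 26.4, and of 8 heart muscle markers NPPA was lower, at 72.8 against 197 to 1224. The heart muscle list as a whole summed to 21400 CPM against 17870 to 25030, with a median log2 ratio of 0.03. The part of these cells in the matrix levels was not tested.

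The node library held MATN2, COL6A3 and ELN above the other 3 heart regions and FN1 below them. These were 3 of 47 called higher, where 1.55% of tested genes were, and 1 called lower, where 0.726% were. The comparison tested 34 of the 47, and the median log2 ratio was 0.01 over the 47 genes. MATN2 reached 5 CPM in the node alone and entered the tested genes through it. Without the junction library 7 genes were higher, adding COL3A1, COL6A2, COL13A1 and FBLN1, and without the ventricle library 2 were lower, adding COL9A3. Scaling by total counts ended the call for FN1, at a log2 ratio of -0.94. Of 4 smooth muscle markers 1 was higher in the node: ACTA2, smooth muscle actin, which gave 773 CPM of a sum of 911, against sums of 218 to 350 elsewhere in the heart. TAGLN was at 48.4 CPM in node and 74.5 in ventricle, and MYH11 at 19.1 in node and 20.6 in junction. MYLK was highest in the node among the heart libraries but was not called. The median log2 ratio over the 4 was 1.27. Of 8 heart muscle markers NKX2-5 was lower, and the list summed to 17870 CPM against 21350 to 25030 elsewhere in the heart. RYR2, of the same list, was highest in the node, at 228.5 CPM against 100.7 to 141.8. Of 4 surface ectoderm markers CDH1 was lower, but the list sum was highest in the node, at 373.5 CPM against 152.1 to 284.8. Endoderm and liver markers had 3 of 5 higher (APOA1, FGA and FGB), a sum of 1524 CPM against 121 to 650, of which APOA1 gave 1489, and FGA at 0 counts in the other heart libraries. Epicardial markers summed to 703 CPM in node, 706 in junction, 282 in atrium and 209 in ventricle, with UPK3B at 0 counts in node and ventricle. ALDH1A2 alone gave 517, 470, 252 and 169 CPM of these sums. In the stage 8 mesoderm the same markers summed to 418.5 to 635 CPM, so the sum is not particular to the heart. None of the 6 was called higher in the node. The part of these cells in the matrix levels was not tested.

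In the ventricle apex EMILIN2 was called higher, 1 of 47 where 1.13% of tested genes were, and COL6A3, COL24A1 and COL7A1 were called lower, 3 of 47 where 1.42% were. As in the node, 34 of the 47 were tested. The median log2 ratio was -0.45 over the 47 genes and -0.0036 over all listed genes. Without the atrium library FN1 joined the higher calls, making 2, and COL3A1, COL13A1 and FBLN1 joined the lower calls, making 6. Of 11 endothelial markers 3 were higher in the ventricle (CD34, ROBO4 and SOX7), with a summed 397 CPM against 226 to 376. Of 7 cushion markers 2 were lower (PRRX1 and SOX9), with a summed 221 CPM against 218 to 711. Single markers of 4 other lists were also called in the ventricle. APOA1 was lower, at 98.4 CPM against 436 to 1489, as were MYLK of smooth muscle, at 5.97 against 13.0 to 70.04, and KRT8 of surface ectoderm, at 72.9 against 174 to 335. NPPA of heart muscle was higher, at 1224 against 72.8 to 600, while its list summed to 21350 CPM against 17870 to 25030. Their part was not tested.

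The left atrium had none of the 47 called in either direction, where 0.424% of tested genes were higher and 0.303% lower, and its median log2 ratio over them was -0.23. Here too 34 of the 47 were tested. The atrium was the highest heart library for 2 of the 35 genes at 5 CPM in any library, or 5.71%, against 19.2% of all genes at that level. They were COL8A2 and COL4A4, and COL4A4 reached 5 CPM in mesoderm only, with 0.431 to 1.65 CPM in the heart. Without the ventricle library 1 gene was higher, FN1, and 4 were lower, COL1A2, COL3A1, COL6A2 and FBLN1. None of 4 blood markers was called in the atrium. Their sum was 4841 CPM there and 2136 to 2804 in the other heart libraries, and HBAD alone gave 4817 CPM of the atrial sum. The atrium was sampled on the left side only.

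The values then led to a further comparison, chosen after they were seen, of node and junction together against both working chambers. COL3A1 and FBLN1 were called higher, 2 of 47 where 0.867% of tested genes were, and FN1 lower, 1 of 47 where 0.434% were. Again 34 of the 47 were tested. COL3A1 differed 3.30-fold between its nearest libraries (2.86 to 3.82), FBLN1 2.17-fold (1.65 to 2.88) and FN1 2.61-fold (2.55 to 2.67). Leaving out a library changed the number of higher genes to 9 (node left out), 7 (junction), 6 (atrium) or 4 (ventricle), and without the atrium EMILIN2 made the lower calls 2. The shares of 0.867% and 0.434% belong to the full comparison and not to these counts. Marker genes called higher in the same comparison were 4 of 6 for epicardium (BNC1, BNC2, SEMA3D and TCF21), 2 of 7 for cushion (PRRX1 and SNAI2) and 2 of 4 for smooth muscle (MYH11 and MYLK). Their part was not tested.

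Among the mesoderm libraries 1 matrix gene was called. This was ELN, higher in the left mesoderm, 1 of 47 where 0.259% of 9264 tested genes were. No gene was called lower there (background 0.0108%) and none in either direction in the pacemaker field (0.054% higher, 0% lower), the anterior mesoderm (0.173% and 0.0972%) or the posterior mesoderm (0.14% and 0.184%). Leaving out the anterior mesoderm added TNC to the left mesoderm's higher genes, making 2. Leaving out the pacemaker field made TNC lower in the posterior mesoderm, 1 gene in place of none. In these comparisons 25 of the 47 genes were tested. ELN was among them only through the left mesoderm, the one mesoderm library where it reached 5 CPM.

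**Figure D3:**
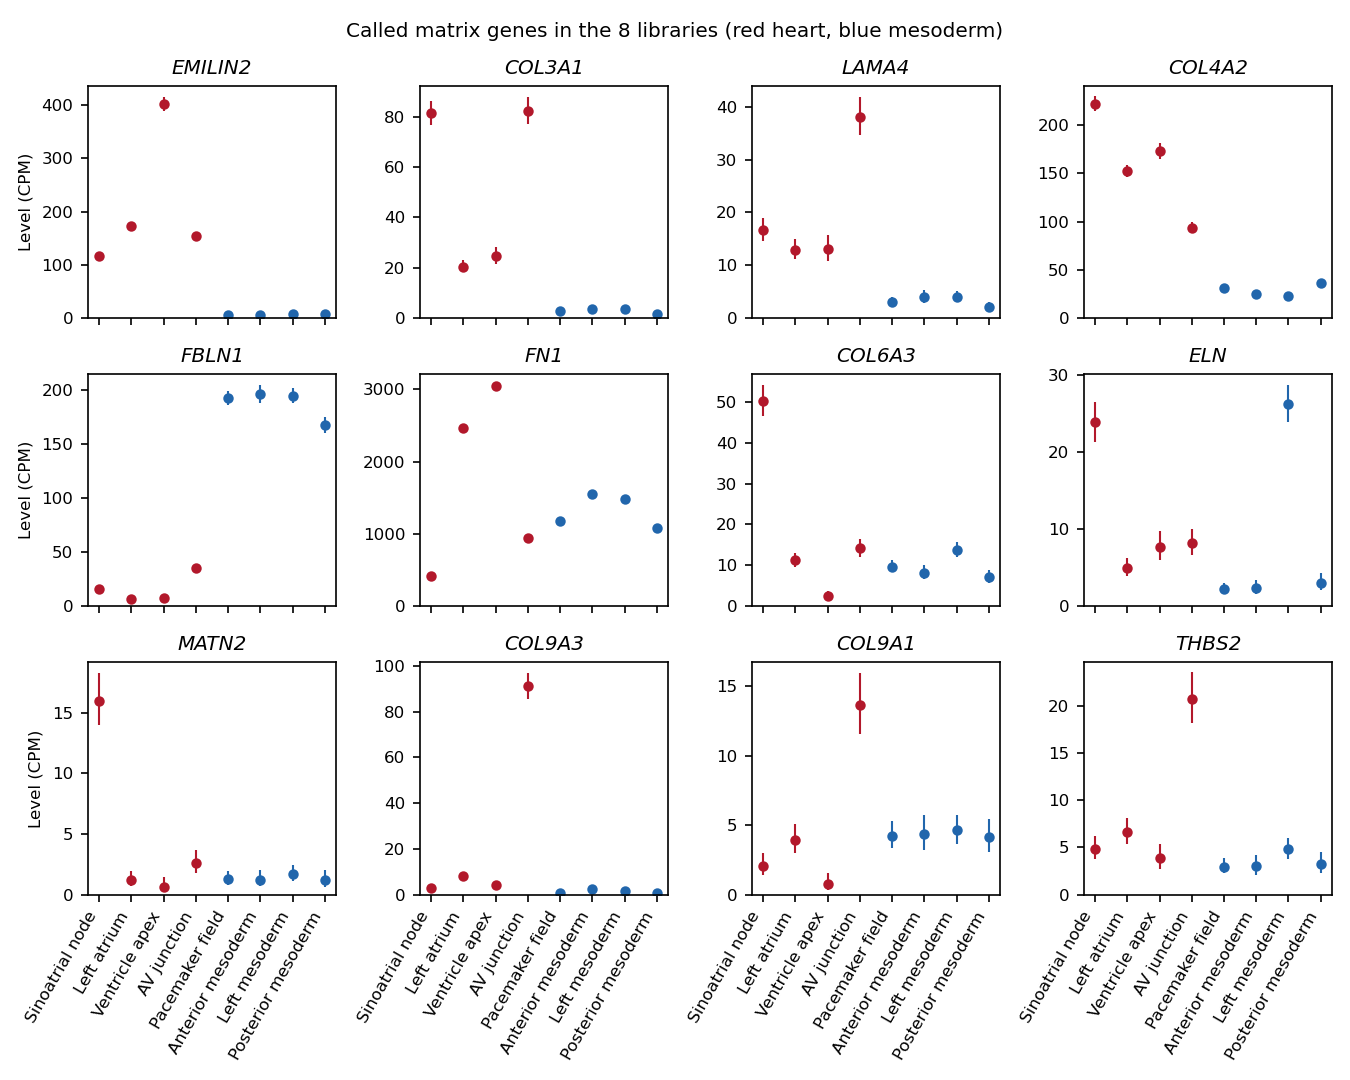
Levels in CPM (vertical axes, linear from 0) of 12 matrix genes called in at least 1 comparison, in the 8 libraries; red points are heart and blue points mesoderm, and bars are exact 95% counting intervals. EMILIN2, COL3A1, LAMA4 and COL4A2 have all red points above all blue points, FBLN1 the reverse, and COL9A3, COL9A1 and THBS2 are highest in the AV junction.

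Fibrillar collagens differed by chain. COL3A1, the homotrimer of compliant tissue, measured 81.3 CPM in node, 20.5 in atrium, 24.6 in ventricle and 82.4 in junction. Mesoderm levels were 2.87 in pacemaker field, 3.58 in anterior, 3.47 in left and 1.54 in posterior mesoderm. The heart and mesoderm levels did not overlap, and the nearest pair, atrium and anterior mesoderm, differed 5.71-fold (4.11 to 8.12). Its level thus fell into 3 steps: node and junction, the working chambers, and mesoderm.

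COL5A2, a chain that sets fibril width, measured 105 CPM in node, 120.4 in atrium, 153 in ventricle and 117 in junction, and 51.1 to 65.7 in mesoderm. The sides did not overlap but the nearest pair differed only 1.60-fold (1.48 to 1.73), so it was not called. COL5A2 and COL3A1 lie next to each other on chromosome 7, pointing toward each other with 8.3 kb between them and no other listed gene. COL5A2 spans 392480 to 558378 on the plus strand and COL3A1 566638 to 617038 on the minus strand. All coordinates are those of the deposited tables, for which the sources used here name no genome build. Within a library the ratio of COL3A1 to COL5A2 counts needs no scaling. It was 0.773 (0.714 to 0.836) in the node, 0.701 (0.645 to 0.763) in the junction, 0.170 in the atrium, 0.161 in the ventricle, and 0.0302 to 0.0556 in mesoderm. The neighbouring genes thus kept no fixed ratio across the libraries.

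COL1A2, a chain of type I collagen, measured 253 CPM in node, 114 in atrium, 212 in ventricle and 289 in junction, and 126 to 195 in mesoderm. The heart range enclosed the mesoderm range. COL2A1, the main collagen of cartilage, which embryonic tissues outside cartilage also express, measured 221 CPM in node, 174 in atrium, 115 in ventricle and 153 in junction. Its mesoderm levels were 83.8 in pacemaker field, 107 in anterior, 89.1 in left and 77.3 in posterior mesoderm. The ventricle and the anterior mesoderm, its nearest pair, differed 1.07-fold (0.986 to 1.16). COL2A1 stands on unplaced sequence in the deposited tables, from 31473034 to 31480014 on the minus strand, a span that is short for a collagen gene. Whether the counts cover the whole gene was not tested.

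COL24A1, a minor fibrillar chain, had its highest levels in mesoderm. It was at 22.7 to 27.3 CPM in all 4 mesoderm libraries, 20.9 in the junction, 8.78 in the atrium, 7.76 in the node and 2.82 in the ventricle. The junction exceeded the atrium 2.37-fold (1.91 to 2.97) and the ventricle lay 2.75-fold (1.78 to 4.40) below the node. COL27A1 was at 3.8 to 9.47 CPM in the heart and 5.56 to 6.82 in mesoderm, with overlapping ranges and no call.

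Of the basement membrane collagens COL4A2 was called. COL4A2, a chain of the common collagen IV network, measured 222 CPM in node, 153 in atrium, 173 in ventricle and 93.6 in junction. Mesoderm levels were 31.3 in pacemaker field, 24.9 in anterior, 22.5 in left and 36.4 in posterior mesoderm. The nearest pair, junction and posterior mesoderm, differed 2.57-fold (2.30 to 2.89). COL4A2 spans 143257170 to 143306903 on the plus strand of chromosome 1. With scaling by total counts, which shifted the median tested gene of this contrast by -0.30, its log2 ratio was 0.997, just short of the threshold.

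COL4A5 and COL4A6, chains of a collagen IV network of embryonic basement membranes, had overlapping or closer levels on both sides. COL4A5 measured 259 CPM in node, 252 in atrium, 319 in ventricle and 480.5 in junction, and 229 to 257 in mesoderm. COL4A6 was at 147, 167, 168 and 327 CPM in the same heart order and at 118 to 131 in mesoderm. Both were highest in the junction without reaching the 2-fold limit there. Transcribed in opposite directions on chromosome 4, with 106.3 kb and 1 listed gene between them, they kept a count ratio of COL4A6 to COL4A5 between 0.462 and 0.681 in all 8 libraries. COL4A4 was at 4.28 to 5.95 CPM in mesoderm and 0.431 to 1.65 in the heart. Its nearest pair, atrium and anterior mesoderm, differed 2.60-fold (1.57 to 4.43). The pair stayed below 5 CPM and, with 1 CPM added to each, fell just short of 2-fold, so COL4A4 was not called.

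Laminins are trimers of an alpha, a beta and a gamma chain, and the alpha chain sets which receptors they bind. LAMA5, the widespread alpha chain of the embryo, measured 230 CPM in node, 186 in atrium, 238 in ventricle and 234 in junction, and 142 to 205 in mesoderm, with overlapping ranges. LAMA4, an alpha chain of vessel walls, measured 16.7 CPM in node, 12.9 in atrium, 13.1 in ventricle and 38.1 in junction. Its mesoderm levels were 3.08, 4.02, 3.99 and 2.06 CPM in the pacemaker field, anterior, left and posterior libraries. LAMA4 was thus above mesoderm in every heart library. Its nearest pair, atrium and anterior mesoderm, differed 3.21-fold (2.31 to 4.53), and the junction exceeded the node 2.28-fold (1.94 to 2.68). LAMA4 spans 68340443 to 68437817 on the plus strand of chromosome 3.

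LAMA2, the alpha chain of muscle basement membrane, was at 17.8 CPM in junction, 7.55 in atrium, 3.59 in node and 0.760 in ventricle, and at 0.515 to 1.5 in mesoderm. The ventricle lay within the mesoderm range. The junction exceeded the atrium 2.36-fold (1.86 to 3.0). As a share of all counts of the 4 measured alpha chains, LAMA5 took 95.8% to 98.5% in mesoderm, 94.2% in the ventricle, 91.2% in the node, 89.8% in the atrium and 79.8% (78.4 to 81.2) in the junction. LAMA4 took 1.03% to 2.71% in mesoderm and 13.0% (11.9 to 14.2) in the junction, and LAMA2 took 6.08% (5.29 to 6.94) there. These shares are not corrected for gene length and leave out LAMA1.

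**Figure D4:**
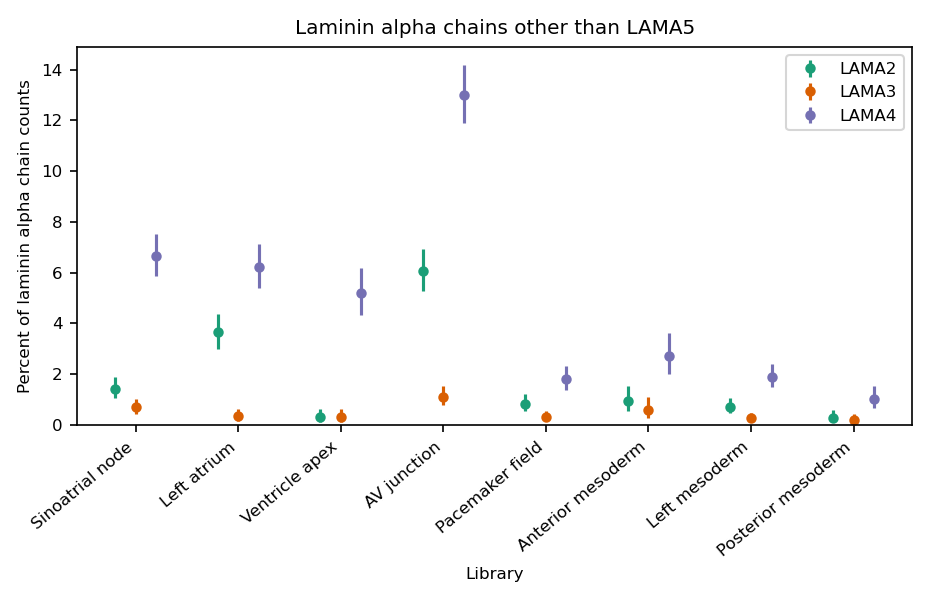
Percent of the counts of the 4 measured laminin alpha chains that fell on LAMA2, LAMA3 and LAMA4 (vertical axis) in the 8 libraries, with exact 95% counting intervals; LAMA5 takes the remainder. LAMA4 reaches 13.0% and LAMA2 6.08% in the AV junction, and the mesoderm libraries stay at 2.71% or below for each chain.

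LAMB1, the beta chain of early laminins, had a higher range in mesoderm than in the heart. It measured 402 CPM in pacemaker field, 375 in anterior, 399 in left and 398 in posterior mesoderm. Heart levels were 247 in node, 242 in junction, 173 in ventricle and 145 in atrium. No heart library reached a mesoderm library, but the nearest pair, node and anterior mesoderm, differed 1.52-fold (1.45 to 1.59) and the gene was not called. NID2, a nidogen that links laminin to collagen IV, measured 232 CPM in node, 183 in atrium, 289.5 in ventricle and 218 in junction, and 246 to 269 in mesoderm. The ranges overlapped. LAMA3 and LAMB3, chains of an epithelial laminin, and LAMC3, a minor gamma chain, stayed below 5 CPM everywhere. LAMC3 measured 2.59 CPM in node, 1.44 in atrium, 0.651 in ventricle and 0.869 in junction, and 1.03 to 2.88 in mesoderm. LAMB3 was at 1.85 to 4.34 CPM in the heart and had 0 counts in 3 mesoderm libraries and 0.172 CPM in the posterior one.

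Collagen VI forms beaded filaments from its alpha 1, alpha 2 and alpha 3 chains, and the chain genes did not move together. COL6A3 measured 50.2 CPM in node, 11.3 in atrium, 2.60 in ventricle and 14.2 in junction, and 7.21 to 13.8 in mesoderm. The node exceeded the junction 3.55-fold (2.99 to 4.23) and the ventricle lay 4.32-fold (2.81 to 6.94) below the atrium. COL6A1 measured 11.1 CPM in node, 16.7 in atrium, 25.6 in ventricle and 17.8 in junction, and 5.23 to 7.79 in mesoderm. The ventricle was thus the highest library for COL6A1 and the lowest for COL6A3.

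COL6A2 measured 7.83 CPM in node, 6.52 in junction, 2.82 in ventricle and 1.85 in atrium. In mesoderm it had 2 counts in pacemaker field, 3 in anterior, 0 in left and 1 in posterior mesoderm. Its nearest pair, atrium and anterior mesoderm, differed 7.07-fold (2.18 to 36.4) without reaching 5 CPM. COL6A1 (6711896 to 6734653) and COL6A2 (6754986 to 6780959) stand in tandem on the plus strand of chromosome 7, with 20.3 kb and no listed gene between them. The ratio of COL6A2 to COL6A1 counts was 0.708 (0.549 to 0.911) in the node, 0.366 (0.277 to 0.479) in the junction, 0.111 in the atrium and 0.110 in the ventricle. In the mesoderm it was 0 to 0.0353, with upper bounds of 0.0326 to 0.107. The ratio of COL6A3 to COL6A1 ran from 0.102 (0.0639 to 0.155) in the ventricle to 4.54 (3.81 to 5.44) in the node.

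**Figure D5:**
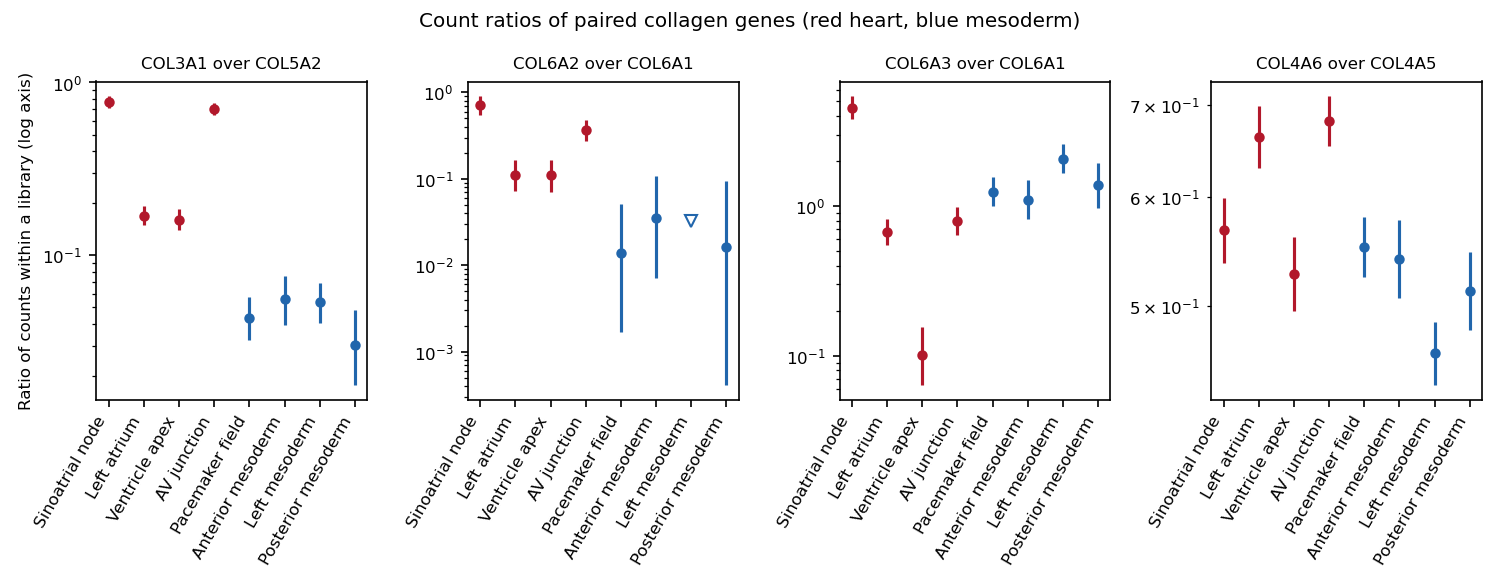
Ratio of the counts of paired collagen genes within each library (vertical log axes, each panel with its own range), red for heart and blue for mesoderm, with exact 95% counting intervals; the open triangle is the upper bound where COL6A2 had 0 counts. COL3A1 over COL5A2 and COL6A2 over COL6A1 are highest in the sinoatrial node and AV junction, COL6A3 over COL6A1 is lowest in the ventricle apex, and COL4A6 over COL4A5 stays between 0.462 and 0.681.

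FACIT collagens sit on the surface of fibrils rather than form them. COL9A3, a chain of cartilage type collagen IX, was at 91.1 CPM in junction, 8.10 in atrium, 4.02 in ventricle and 2.87 in node, and at 0.811 to 2.27 in mesoderm. The junction exceeded the atrium 11.3-fold (9.30 to 13.7), the largest fold of a called matrix gene in the comparisons within the heart. COL9A1, its partner chain, was at 13.6 CPM in junction, 3.91 in atrium, 2.08 in node and 0.760 in ventricle, and at 4.12 to 4.63 in mesoderm. The junction again exceeded the atrium, by 3.49-fold (2.56 to 4.81), but the mesoderm levels of COL9A1 lay above the other 3 heart libraries. COL9A3 lies on chromosome 20 from 8327715 to 8359507 (plus strand) and COL9A1 on chromosome 3 from 85586689 to 85733990 (plus strand).

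COL22A1, a collagen of tissue junctions such as those of muscle and tendon, measured 15.0 CPM in pacemaker field, 19.8 in anterior, 12.7 in left and 8.15 in posterior mesoderm, and 1.52 to 7.21 in the heart. The ranges did not overlap, but junction and posterior mesoderm differed only 1.13-fold (0.833 to 1.54). COL21A1 stayed at 0.961 to 3.06 CPM.

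Among other collagens, COL13A1, a transmembrane collagen of cell adhesion sites, measured 76.7 CPM in node, 37.7 in atrium, 19.4 in ventricle and 46.6 in junction, and 16.1 to 18.6 in mesoderm. Ventricle and mesoderm nearly met, at a ratio of 1.04 (0.851 to 1.28). COL7A1, the collagen of anchoring fibrils under epithelium, was at 15.8 to 20.3 CPM in mesoderm, 10.8 in the node and in the junction, 5.90 in the atrium and 2.17 in the ventricle. The ventricle lay 2.72-fold (1.66 to 4.67) below the atrium. COL8A2, a short chain network collagen, was at 3.65 to 8.99 CPM in all libraries. COL8A1, COL15A1, COL25A1 and COL28A1 stayed below 5 CPM, with COL25A1 at 1.49 to 3.65 CPM in mesoderm and 0.0718 to 0.608 in the heart.

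Fibronectin separated the working chambers from node and junction. FN1 measured 423 CPM in node, 943 in junction, 2460 in atrium and 3037 in ventricle. Mesoderm levels were 1172 in pacemaker field, 1547 in anterior, 1484 in left and 1076 in posterior mesoderm. The working chambers lay above all mesoderm libraries, and the node and junction below them. The node lay 2.23-fold (2.16 to 2.30) below the junction. FN1 spans 4362117 to 4410959 on the minus strand of chromosome 7, 380.2 kb and 10 listed genes from COL6A3, which was highest in the node.

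Fibulins, which bind fibronectin, laminin and proteoglycans, held a larger share of counts in the mesoderm than in the heart. FBLN1, abundant in cushion matrix of later hearts, measured 192 CPM in pacemaker field, 196 in anterior, 194 in left and 168 in posterior mesoderm. Heart levels were 35.5 in junction, 16.2 in node, 7.49 in ventricle and 7.14 in atrium. The junction, its highest heart library, still lay 4.72-fold (4.24 to 5.26) below the posterior mesoderm, and exceeded the node 2.19-fold (1.86 to 2.59). FBLN1 spans 72638879 to 72721710 on the plus strand of chromosome 1. FBLN2 was at 125 to 182 CPM in mesoderm, 151 in the junction, 98.9 in the atrium, 79.0 in the node and 57.9 in the ventricle, so the junction fell within the mesoderm range. FBLN5, a fibulin of elastic fibres, had 0 counts in all mesoderm libraries and 0.348 to 0.647 CPM in the heart, and FBLN7 stayed below 1 CPM.

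Elastic fibre genes each had a pattern of their own. EMILIN2, a glycoprotein of elastic microfibrils, measured 117 CPM in node, 173 in atrium, 402 in ventricle and 155 in junction. Mesoderm levels were 6.82, 6.73, 7.41 and 7.21 CPM in the pacemaker field, anterior, left and posterior libraries. Heart and mesoderm were 15.8-fold apart at their nearest (13.2 to 19.0, node and left mesoderm), the largest such fold of a called matrix gene, and the ventricle exceeded the atrium 2.32-fold (2.21 to 2.45). EMILIN2 spans 104164484 to 104200350 on the minus strand of chromosome 2. EMILIN3 was at 1.92 to 8.51 CPM with overlapping ranges.

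ELN, elastin itself, measured 23.9 CPM in node, 5.01 in atrium, 7.70 in ventricle and 8.17 in junction. Mesoderm levels were 26.2 in the left library, 2.27 in the pacemaker field, 2.36 in the anterior and 3.09 in the posterior library. The node exceeded the junction 2.92-fold (2.32 to 3.71) and the left mesoderm exceeded the posterior 8.49-fold (6.04 to 12.3). No other gene of the 47 was called among the mesoderm libraries, and none of the genes found on the lists of partners and cell type markers was called in the left mesoderm. ELN lies on chromosome 19 from 728579 to 748054 (plus strand).

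Of the matricellular genes, THBS2, a thrombospondin that modulates cell and matrix contact, was at 20.8 CPM in junction, 6.66 in atrium, 4.89 in node and 3.91 in ventricle, and at 2.98 to 4.80 in mesoderm. The junction exceeded the atrium 3.12-fold (2.45 to 3.99). TNC, tenascin C, an anti-adhesive protein of remodelling tissue, measured 16.1 CPM in node, 11.1 in atrium, 9.98 in ventricle and 11.3 in junction. Its mesoderm levels formed high and low pairs: 9.95 CPM in the left and 9.61 in the anterior library, against 4.38 in the pacemaker field and 3.60 in the posterior library. No TNC library stood 2-fold apart from all others of its side, and it was not called.

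Matrilins are adaptor proteins best known from cartilage. MATN2 measured 16.0 CPM in node, 2.61 in junction, 1.24 in atrium and 0.651 in ventricle, and 1.20 to 1.68 in mesoderm. The node lay 6.15-fold (4.19 to 9.33) above the junction and every other library lay lower still. MATN4 was at 6.34 CPM in junction, 2.40 in atrium, 0.217 in ventricle and 0.0718 in node, where it had 1 count, and at 1.14 to 2.43 in mesoderm. The junction exceeded the atrium 2.64-fold (1.74 to 4.07). MATN1 and MATN3 stayed below 1 CPM in all libraries. COL4A3BP, the gene that is no collagen, was at 4.26 to 6.61 CPM in the heart and 7.52 to 10.04 in mesoderm and was not called.

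Genes that make, bind or sense this matrix were read from lists of their own. Of 23 genes found for collagen synthesis and cross-linking, 19 of them tested, 2 were higher in heart than in mesoderm and 1 lower. Of all 10454 tested genes 5.62% were higher and 2.53% lower. The median log2 ratio was 0.28 over the 23 genes and 0.00 over all listed genes. PLOD2, a lysyl hydroxylase, was at 72.7 to 98.2 CPM in the heart and 23.6 to 35.1 in mesoderm, and ADAMTS3, a procollagen protease, at 13.8 to 23.6 and 3.30 to 4.98. TLL1, a protease of the procollagen C-terminus, was lower, at 4.96 to 9.30 CPM against 36.3 to 42.8. No gene of this list was called for any single heart region. In node and junction against the chambers P3H3, a prolyl hydroxylase, was higher, where 0.867% of tested genes were. It was at 12.5 and 11.5 CPM against 4.46 and 4.45. LOX, which cross-links collagen and elastin, had 0 counts in the node and 15.9 CPM in the ventricle, 13.7 in the junction and 1.85 in the atrium.

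Basement membrane partners had 4 of 14 genes higher in the heart (EGFLAM, NPNT, SMOC2 and TINAGL1) and FREM1 lower, with 12 of the 14 tested. Over all tested genes the shares were 5.62% higher and 2.53% lower. The median log2 ratio was 1.19 over the 14 genes and 0.00 over all listed genes. EGFLAM, a dystroglycan ligand, was at 42.2 to 68.5 CPM against 4.02 to 5.56, and NPNT, an integrin ligand, at 8.14 to 40.7 against 1.68 to 3.13. SPARC, which binds collagen IV, was at 582 to 1047 CPM in the heart and 223 to 307 in mesoderm and missed the call. TINAG, a basement membrane protein of tubules, was higher in the junction, at 5.13 CPM against 0 to 1.51 in the other heart libraries. SMOC2, a SPARC relative, was lower in the atrium, where 0.303% of tested genes were, at 9.54 CPM against 26.9 to 65.2. Of 8 elastic fibre partners, which include FBLN5, 5 were tested, and the median log2 ratio over the 8 was 0.55. LTBP1 was higher in the heart, at 132 to 280.2 CPM against 41.0 to 59.8, and none was lower. LTBP2, which binds fibrillin, was at 36.9 CPM in the junction, where it was higher, 2.37 in the node, where it was lower, and 5.83 and 16.4 in atrium and ventricle. ADAMTS10, which acts on fibrillin, was higher in the node, at 35.1 CPM against 3.30 to 12.1. In the node 1.55% of tested genes were higher and 0.726% lower, and in the junction 0.827% were higher.

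Of 12 matrix receptor genes found, 8 of them tested, none was called between heart and mesoderm. Of all tested genes 5.62% were higher and 2.53% lower. The median log2 ratio was 0.35 over the 12 genes and 0.00 over all listed genes. ITGB1, the common beta integrin chain, was at 287 to 359 CPM in the heart and 139.8 to 178.5 in mesoderm. In the ventricle 2 of the 12 were higher, where 1.13% of tested genes were. ITGA1, a collagen-binding chain, was at 10.9 CPM against 2.35 to 3.88 in the other heart libraries. ITGA8, which binds fibronectin and nephronectin, was at 30.4 against 8.69 to 11.1.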

How the data were processed

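Paired 36-base reads came from polyadenylated RNA of pooled tissue, per the labels' protocols. The submitters' processing notes name Bowtie and TopHat. No source used here gives the genome build, annotation, counter or strand setting, so reads of genes that overlap on opposite strands cannot be told apart.

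Per the file headers, the tables the authors deposited hold gene counts for 7 libraries and CPM for all 8, without scaling between libraries. Each count column stands in the table of another library and was matched by its header name. Counts divided by their sum gave the deposited CPM to within 4.9e-11. For the posterior mesoderm, dividing deposited CPM by the worth of 1 read gave back its counts, with 100% of values whole to within 0.01. All 16 columns were used.

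Names of 36 of the 47 genes are symbols in the tables. The other 11 are database entry names (CO3A1 for COL3A1, FINC for FN1). The 10 nearest genes on each side were pooled and compared with a chicken RefSeq gene table (GRCg7b), used for names and gene order only. A name was accepted where at least 2 of the pooled genes were shared. COL6A1 and COL6A2 each met this minimum of 2 exactly.

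Libraries were scaled with TMM factors (edgeR 4.0.16, R 4.3.3). Calls, intervals and ratios were computed with scipy 1.17.1. The calling was also run on simulated libraries with known folds. These held counting error only, so they cannot speak to variation between embryos or dissections. Genes and lists were chosen with earlier results of these data known. Named genes are those called (up to 10 higher and 6 lower between heart and mesoderm, and at 10 CPM or more elsewhere) and the 2 highest of each role. Other members were named after their values were seen. Of the partner lists, up to 4 called genes were named, and LOX, SPARC and ITGB1 after their values were seen. The planned ratio of COL1A2 and COL4A2 to their partner chains was not run, as these found no match. Ratios other than COL6A2 to COL6A1 were chosen after the values were seen. Somite, notochord and ectoderm markers were also read: 0 of 3, 1 of 3 (SHH, lower) and 1 of 4 (EPCAM, lower) were called between heart and mesoderm.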

Additional observations from a re-analysis of the deposited data

How the results depend on the processing

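No paired analysis was possible because each group is 1 library. With 1 library a group and 10258697 to 17189803 counts, counting error is small for most of these genes and the variation between embryos or dissections is unknown. Counts were recomputed with total count scaling, relative log expression scaling, a pseudocount of 0.1 CPM, no level minimum and each library left out in turn, with the factors of all 8 libraries kept. The library that a comparison is about cannot be left out.

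Total count scaling ended the only lower call of the node (0 genes), and of the genes named for a call it ended 4: COL4A2 in the heart, FN1 in the node, and FBLN1 and LAMA4 in the junction. It shifted the median log2 ratio of all tested genes by -0.30 for heart against mesoderm and by 0.18 for the node. Single genes were recomputed for the calls between heart and mesoderm and for the other calls at 10 CPM or more, and none of these changed direction under these settings. The other counts of called genes stayed within 1.5 times under the settings that keep all libraries.

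Leaving out 1 library gave 4 to 5 genes higher and 1 to 3 lower for heart against mesoderm, 3 to 7 and 1 to 2 for the node, 0 to 1 and 0 to 4 for the atrium, 1 to 2 and 3 to 6 for the ventricle, and 8 to 9 and 0 to 1 for the junction. It gave 1 to 2 higher for the left mesoderm and 0 to 1 lower for the posterior mesoderm. For node and junction against the chambers it gave 4 to 9 higher and 1 to 2 lower. Calls rest on the nearest pair of libraries. With all factors kept, leaving out a library keeps this pair or replaces it with one further apart in level. The number of calls was therefore almost bound to stay or rise, and no call ended. These ranges show how many further calls single libraries held back, and do not test the calls already made or their direction. No shares over all genes were computed for them.

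Without FN1 the genes' share of counts was 0.247% (node), 0.168% (atrium), 0.221% (ventricle), 0.251% (junction), 0.236% (pacemaker field), and 0.203%, 0.254% and 0.221% (anterior, left and posterior mesoderm).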
